A study of Saccharomyces cerevisiae with 4 samples.

Results

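The transcripts of the 26S proteasome and of its transcriptional activator Rpn4 were followed in *Saccharomyces cerevisiae* lacking both genes of high-affinity potassium uptake. The set was taken by systematic gene name and holds 33 genes among the 6212 rows of the array table. It contains the 14 genes of the 20S core (PRE1 to PRE10, PUP1 to PUP3 and SCL1), 8 of the 19S lid, 10 of the 19S base, and RPN4. Rpn10 and Rpn13 were counted with the base, and the small lid subunit Sem1 was not analysed here. The trk1 trk2 double mutant was set against the wild type, both labelled as strain BY4741. Both were grown at 28 °C to an A600 of 0.6 in low-potassium medium (15 µM) to which 50 mM KCl was added. Each of the 4 dual-colour arrays carried cDNA of both strains, with the mutant in Cy5 on arrays 1 and 4 and in Cy3 on arrays 2 and 3. The labels describe 2 independent experiments with a dye swap each, here read as arrays 1 and 2 for experiment 1 and arrays 3 and 4 for experiment 2. They do not say how the double mutant was made or whether it is a single clone. The comparison asks which transcripts differ without the Trk system when potassium is abundant.

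The 26S proteasome degrades proteins marked with ubiquitin. Its 20S core is a barrel of alpha rings, which gate the entrance, around beta rings, which hold the proteolytic sites. The 19S particle caps the barrel: the base unfolds substrates with a ring of ATPases, and the lid removes their ubiquitin. In budding yeast most of these genes are activated together by Rpn4, a very short-lived factor that the proteasome itself degrades, so that a shortage of proteasome activity normally raises Rpn4 and its targets.

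Values are log2 ratios of mutant over wild type, so that 1 stands for a transcript at 2 times its wild-type level and a negative value for a lower one. The direction rests on the deleted TRK1, at −6.13 and −4.60 on arrays 1 and 4 and empty on the others, and on TRK2, at −4.23 on array 4 alone. Arrays 2 and 3 have no such check of their own. The table gave between 4690 and 5403 values per array, and 4255 genes had one on all 4. Array 4 correlated least with the others, with r from 0.27 to 0.39 over those genes. Beside each gene stand its mean over the 2 experiments, limma's moderated standard error (n = 2) and limma's adjusted p over all 4255 genes. The ratios are relative, with a normalization that was not given, so a change in the total RNA per cell cannot be read from them.

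All 33 members gave a signal. A value was present on all 4 arrays for 29 of them and on 3 arrays for PRE5, RPN1, RPN13 and RPN4. No member passed an adjusted p of 0.05 in either direction, 0 of 29 tested, where 3.36% of all genes passed in limma (1.62% higher and 1.74% lower). At that background a count of 0 among 29 genes does not set the proteasome apart. At an unadjusted p under 0.05 limma held 2 of the 29, PUP3 and PUP2, or 6.90%, against 20.2% of all genes. For 28 of 29 members the 95% interval lay within a 2-fold change either way, as it did for 85.8% of all genes. For 18 of 29, or 62.1%, it lay within 1.5-fold, against 36.5% of all genes. The median size of the mean change, without its sign, was 0.13 among the 29 members and 0.22 among all genes, and the smallest change called in any gene was 0.86.

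The small differences leaned upward. A positive mean was found in 23 of 29 members, against 44.8% of all genes, and the median of the 29 means was 0.13, against −0.040 over all genes. The 29 members had a median of 0.19, 0.13, 0.009 and 0.21 on arrays 1 to 4, and all genes one of −0.017, −0.093, −0.088 and 0.043. Their median thus stood above that of all genes on each array, by 0.21, 0.22, 0.097 and 0.17. All 4 arrays were positive for 11 members, against 17.5% of all genes, and all 4 were negative for 0 members, against 21.1% of all genes. These counts describe genes that vary together and were not tested.

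**Figure D1:**
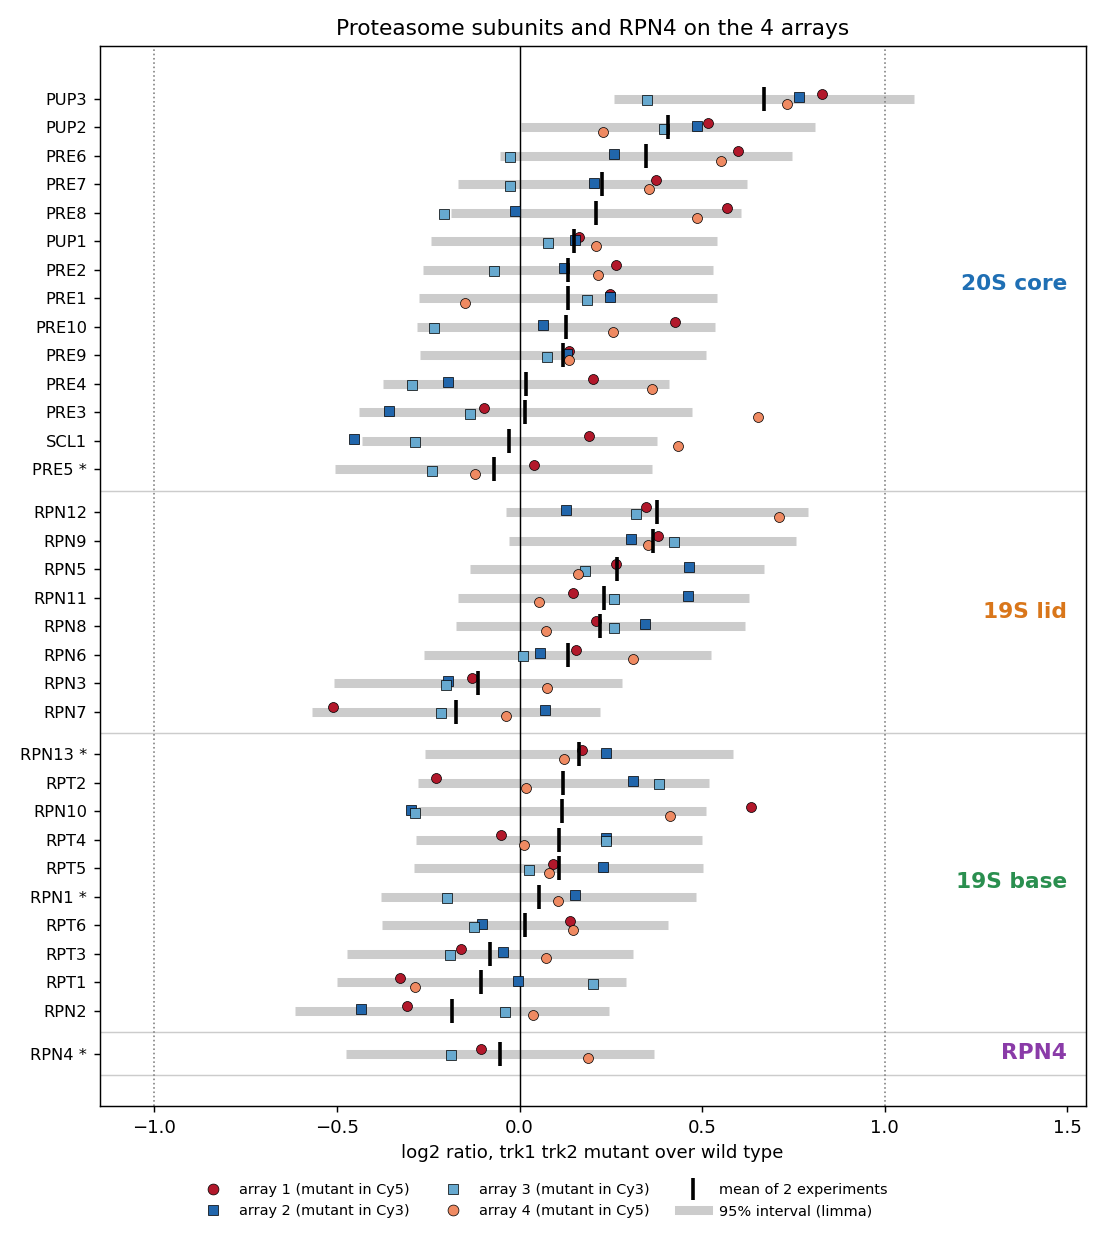
Log2 ratio of mutant over wild type (horizontal axis) for each of the 33 members (rows), with 1 point per array, circles for arrays with the mutant in Cy5 and squares for those with it in Cy3; points are offset vertically for legibility. Black ticks are means of the 2 experiments, grey bars 95% intervals from limma, dotted lines a 2-fold change, and an asterisk marks genes with 3 arrays, whose interval comes from the fit of genes with a value in each experiment. The bars of PUP3 and PUP2 alone lie to the right of 0, and only that of PUP3 crosses a dotted line.

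In the alpha ring of the core, PUP2 (YGR253C) was positive throughout, at 0.52, 0.49, 0.40 and 0.23 on arrays 1 to 4. Its mean of 0.41 ± 0.17 did not pass the test (adjusted p = 0.241), and its 95% interval ran from 0.0045 to 0.81. PRE6 (YOL038W) read 0.60, 0.26, −0.025 and 0.55, high on both arrays with the mutant in Cy5 and lower on the others (mean 0.35 ± 0.17, adjusted p = 0.302). The same order of dyes was seen in PRE8 (YML092C), at 0.57, −0.013, −0.21 and 0.49, and in PRE10 (YOR362C), at 0.43, 0.064, −0.23 and 0.26. SCL1 (YGL011C) split fully by dye, with 0.19 and 0.43 on arrays 1 and 4 and −0.45 and −0.29 on arrays 2 and 3. Its mean was −0.029 ± 0.17 (adjusted p = 0.936), and with each array centred on its median it was 0.023. PRE9 (YGR135W), the one core subunit that yeast can live without, stayed within a narrow band, at 0.14, 0.13, 0.075 and 0.14. PRE5 (YMR314W) read 0.039, −0.24 and −0.12 on arrays 1, 3 and 4. In a fit that asked only for 1 value from each experiment, PRE5 had a mean of −0.071 ± 0.18 (adjusted p = 0.854), and 1.62% of 4882 genes passed in that fit.

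The beta ring held the member with the highest mean, PUP3 (YER094C), a subunit without a proteolytic site of its own. It read 0.83, 0.77, 0.35 and 0.73 on arrays 1 to 4, positive on each and lowest on array 3. The mean of 0.67 ± 0.17, or 1.59-fold, missed the threshold (adjusted p = 0.0976, unadjusted p = 0.00688 in limma), with a 95% interval from 0.26 to 1.08. PUP3 was also the 1 member of 29 that changed at least 1.5-fold with the same sign on all 4 arrays, against 10.6% of all genes. It passed in 5 of 13 alternative fits, 4 of which count each array as a replicate or block and 1 of which pairs the arrays the other way, with adjusted p between 0.0180 and 0.487 over the 13. With that other pairing 17.1% of all genes passed.

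The remaining beta subunits had means between 0.015 and 0.23. Of the catalytic ones, PUP1 (YOR157C), which cuts after basic residues, read 0.16, 0.15, 0.077 and 0.21 on arrays 1 to 4, and PRE2 (YPR103W), which cuts after hydrophobic ones, had a mean of 0.13 ± 0.16 (adjusted p = 0.681). PRE3 (YJL001W), which cuts after acidic residues, read −0.098, −0.36, −0.14 and 0.65, negative on 3 arrays and clearly positive on array 4. Its mean was 0.015 ± 0.19 (adjusted p = 0.973), with the highest standard error of the 29 members. PRE4 (YFR050C), whose gene lies 1 gene away from the lid gene RPN12, read 0.20, −0.20, −0.29 and 0.36, positive with the mutant in Cy5 and negative with it in Cy3. PRE7 (YBL041W) had a mean of 0.23 ± 0.16 (adjusted p = 0.475). PRE1 (YER012W) read 0.25, 0.25 and 0.18 on arrays 1 to 3 and −0.15 on array 4.

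The lid genes were positive more evenly. RPN9 (YDR427W), a scaffold subunit, was nearly the same on arrays 1 to 4, at 0.38, 0.30, 0.42 and 0.35, with a mean of 0.36 ± 0.16 (adjusted p = 0.277). RPN12 (YFR052W), which joins late in lid assembly, read 0.35, 0.13, 0.32 and 0.71 and had the highest mean of the lid, 0.38 ± 0.17 (adjusted p = 0.286). RPN11 (YFR004W), the protease that cuts ubiquitin chains off the substrate, read 0.15, 0.46, 0.26 and 0.054. Its binding partner RPN8 (YOR261C) read 0.21, 0.34, 0.26 and 0.073. Both were higher on the arrays with the mutant in Cy3, and their means were 0.23 ± 0.16 and 0.22 ± 0.16 (adjusted p = 0.472 and 0.483). Of the scaffold subunits, RPN5 (YDL147W) had a mean of 0.27 ± 0.17 and RPN6 (YDL097C) one of 0.13 ± 0.16, each positive on all 4 arrays. Negative means were found in RPN3 (YER021W), at −0.11 ± 0.16, and RPN7 (YPR108W), at −0.17 ± 0.16, with adjusted p of 0.724 and 0.583. RPN7 read −0.51 on array 1 and lay between −0.22 and 0.07 on the others.

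The base genes had means on both sides of 0, with a median of 0.061, against −0.040 for all genes. Among the 6 ATPases of the ring, means ran from −0.10 for RPT1 (YKL145W) to 0.12 for RPT2 (YDL007W), with adjusted p of 0.748 and 0.709. RPT2, whose tail helps to open the gate of the core, read −0.23, 0.31, 0.38 and 0.017 on arrays 1 to 4, and RPT1 read −0.33, −0.004, 0.20 and −0.29. Both were higher on the arrays with the mutant in Cy3, the reverse of the order in SCL1 and PRE8. RPT4 (YOR259C), 1 gene away from RPN8 on the chromosome, had a mean of 0.11 ± 0.16, as did RPT5 (YOR117W). RPT4 was also higher with the mutant in Cy3, at −0.051, 0.24, 0.24 and 0.012 on arrays 1 to 4. RPT3 (YDR394W) stood at −0.081 ± 0.16 and RPT6 (YGL048C) at 0.015 ± 0.16. In RPT6 that mean joins opposite signs, 0.14 and 0.15 on arrays 1 and 4 and −0.10 and −0.125 on arrays 2 and 3. RPT5 was the one base gene positive on all 4 arrays.

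The scaffolds and ubiquitin receptors of the base did not pass either. RPN2 (YIL075C), which holds Rpn13, had the lowest mean of all 29 members, −0.19 ± 0.18 (adjusted p = 0.589), with −0.31 and −0.43 on arrays 1 and 2 and −0.039 and 0.037 on arrays 3 and 4. RPN1 (YHR027C), the docking site of ubiquitin shuttle proteins, read 0.15, −0.20 and 0.11 on arrays 2, 3 and 4. RPN13 (YLR421C), a ubiquitin receptor, read 0.17, 0.24 and 0.12 on arrays 1, 2 and 4. In the fit of genes with a value in each experiment their means were 0.053 ± 0.17 and 0.16 ± 0.17 (adjusted p = 0.895 and 0.641 in limma). The other receptor, RPN10 (YHR200W), read 0.63 and 0.41 on arrays 1 and 4 but −0.30 and −0.29 on arrays 2 and 3, and the mean of 0.12 ± 0.16 (adjusted p = 0.718) is that of 2 sets of values with opposite signs.

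RPN4 (YDL020C), the activator, was empty on array 2 and read −0.11, −0.19 and 0.19 on arrays 1, 3 and 4. The 3 values lie on both sides of 0. Its mean was −0.053 ± 0.17 (adjusted p = 0.892 in limma, over genes with a value in each experiment). The 95% interval ran from −0.48 to 0.37, so a 1.5-fold change of the RPN4 transcript in either direction lies outside it. Experiment 1 is represented by array 1 alone in that mean, with the mutant in Cy5, so a dye difference would not cancel in it. These are transcript ratios, and the abundance of the Rpn4 protein was not measured.

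The core, lid and base were then set side by side. Over the means of genes with 4 arrays, the median was 0.13 for 13 core genes, 0.23 for 8 lid genes and 0.061 for 8 base genes, against −0.040 for all genes. Means were positive in 12 core, 6 lid and 5 base genes, against 44.8% of all genes. Values positive on all 4 arrays were found in 6 of 8 lid genes, 4 of 13 core genes and 1 of 8 base genes, against 17.5% of all genes. The lid stood above the base on each array, by 0.29, 0.24, 0.22 and 0.062 on arrays 1 to 4. The core stood above the base on arrays 1, 2 and 4, by 0.37, 0.16 and 0.30, and differed from it by −0.019 on array 3. The difference of core from lid changed sign with the dye: 0.083 and 0.24 on arrays 1 and 4, and −0.084 and −0.24 on arrays 2 and 3. The members' means ran from −0.029 to 0.67 in the core, from −0.17 to 0.38 in the lid and from −0.19 to 0.12 in the base. Since subunits are not replicates, no p is given. The base median was −0.035 without array 1 and −0.018 without array 4, so its sign rests on single arrays.

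**Figure D2:**
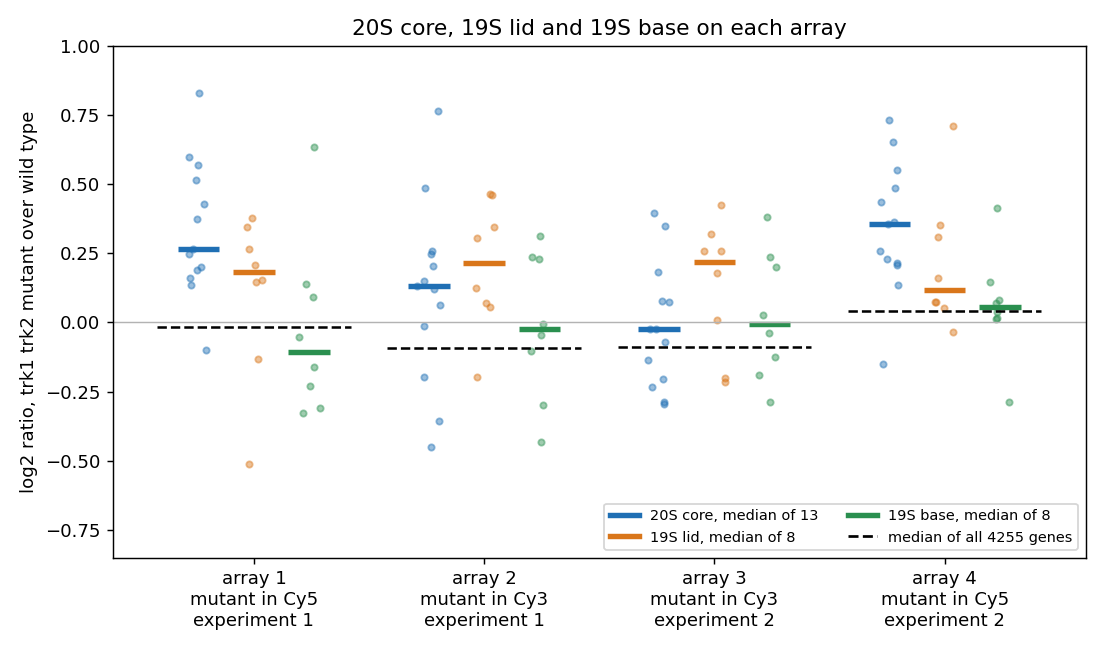
Log2 ratio of mutant over wild type (vertical axis) on each of the 4 arrays for the core, lid and base genes with a value on all 4; points are genes, thick bars their medians, dashed lines the median of all 4255 genes. The core medians of 0.26 and 0.36 on arrays 1 and 4 exceed those of 0.13 and −0.025 on arrays 2 and 3, while the lid medians stay between 0.12 and 0.22.

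The dye carried by the mutant moved with the core values, and its part in them was not tested beyond the values given here. In 10 of 13 core genes both arrays with the mutant in Cy5 read above both with it in Cy3, against 30.8% of all genes. The reverse order was found in 0 of 13, against 10.7% of all genes. For the lid these counts were 3 and 2 of 8 genes, and for the base 2 and 3 of 8. Taking only the means of the 2 orientations, 11 of 13 core genes and 19 of 29 members were higher with the mutant in Cy5, against 62.4% of all genes. The median difference, Cy5 minus Cy3, was 0.28 for the core, −0.053 for the lid and 0.015 for the base, against 0.12 for all genes. The widest differences among the 29 members were 0.81 for RPN10, 0.68 for SCL1 and 0.64 for PRE8 on one side, and −0.45 for RPT2 and −0.40 for RPT1 on the other. In a limma fit of the 4 arrays with a dye term, which was chosen for this purpose after the values were seen, 0 of 29 members had a dye difference past an adjusted p of 0.05. Nor did any of the 4255 genes, and at an unadjusted p under 0.05 there were 3 members (RPN10, SCL1 and PRE8) and 4.58% of all genes. Because each experiment holds both orientations, a dye difference of this kind cancels in the means of genes with a value on all 4 arrays. It does not cancel for PRE5, RPN1, RPN13 and RPN4, where a single array stands for 1 of the experiments.

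Over the whole set of 29, though not within each subcomplex, the members agreed most closely between arrays of equal dye. Over the 29 genes, Pearson's r was 0.66 between arrays 1 and 4 and 0.76 between arrays 2 and 3, the pairs of equal dye. It was 0.38 between arrays 1 and 2 and −0.11 between arrays 3 and 4, the pairs taken as one experiment. Over all 4255 genes the same 4 pairs gave 0.30, 0.69, 0.80 and 0.39. Without PUP3, the member with the highest mean, the 29-gene values became 0.60, 0.74, 0.25 and −0.24. These are correlations across genes, which are not independent replicates, and arrays of equal dye also share any dye preference of a probe. The members spanned less than the table did, with an SD of 0.23 to 0.30 per array against 0.53 to 0.65. In the 13 core genes r was 0.85 between arrays 2 and 3 and 0.32 between arrays 1 and 4, against 0.74 between arrays 1 and 2. In the 8 lid genes it was highest between arrays 1 and 3, of unlike dye, at 0.89, against 0.64 and 0.71 for the pairs of equal dye. The 8 base genes gave 0.86 and 0.71 for the pairs of equal dye, and −0.21 and −0.68 for the pairs taken as one experiment.

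**Figure D3:**
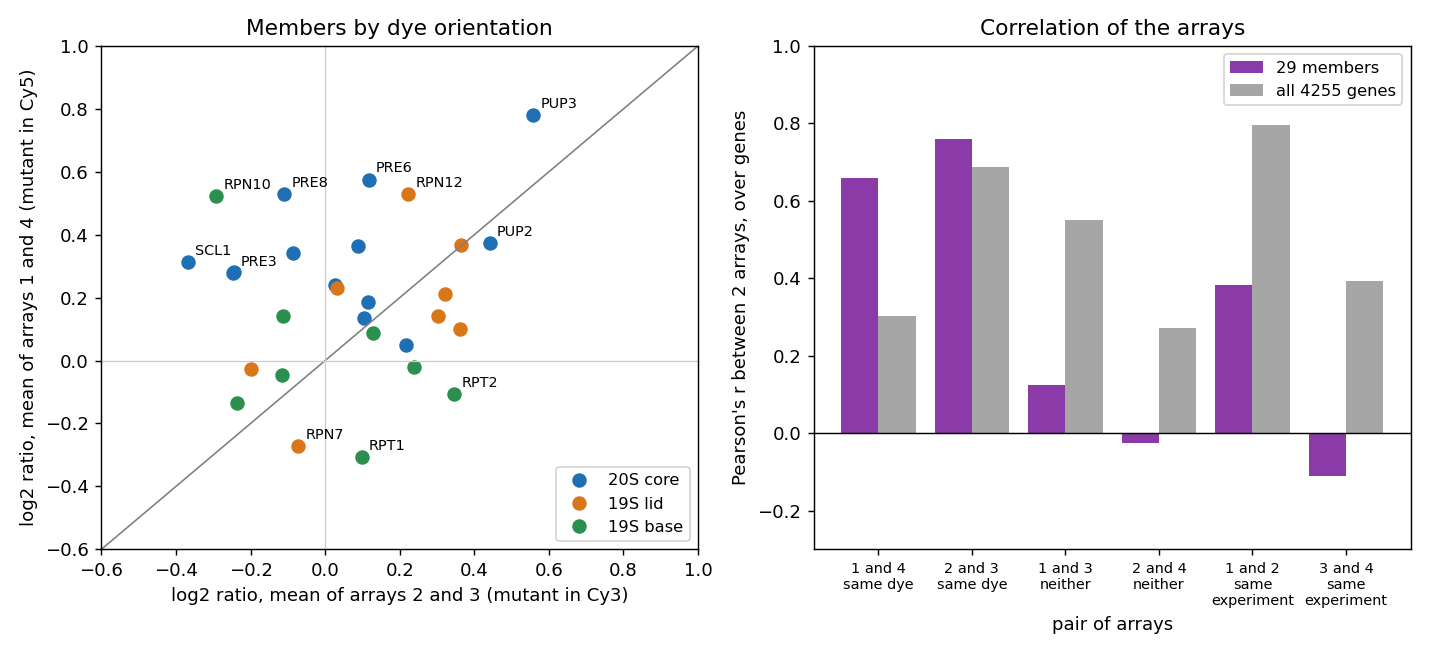
Left, mean log2 ratio of the 29 members on arrays 1 and 4 (mutant in Cy5, vertical axis) against arrays 2 and 3 (mutant in Cy3, horizontal axis), with the line of equality; right, Pearson's r between each pair of arrays over the 29 members (purple) and over all 4255 genes (grey). Most core genes lie above the line, RPT1 and RPT2 below it, and r over the 29 members is highest for the pairs of equal dye, 0.66 and 0.76.

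Genes that act around the proteasome were examined as lists of function. The list of assembly chaperones and associated proteins held 17 genes including SEM1, and 16 of them, without SEM1, had a row in the array table. Of these, 12 were tested in limma and 0 passed (2 at an unadjusted p under 0.05), with a median of 0.078. Among all genes 3.36% passed and 20.2% stood at an unadjusted p under 0.05, so 0 and 2 of 12 are near the background. IRC25 (YLR021W) and POC4 (YPL144W), which together form a chaperone of the alpha ring, had means of 0.51 ± 0.17 and 0.57 ± 0.34 (adjusted p = 0.171 and 0.395). The partners differed between experiments: POC4 read −0.24 and −0.11 on arrays 1 and 2 but 1.66 and 0.97 on arrays 3 and 4, whereas IRC25 lay between 0.28 and 0.76 on all 4. RPN14 (YGL004C), a chaperone of the base, had a mean of −0.46 ± 0.19 (adjusted p = 0.239) and was negative on 3 arrays.

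In the list of ubiquitin, shuttle and Cdc48 genes, 18 of 22 were tested in limma and 0 passed (7 at an unadjusted p under 0.05), with a median of −0.008. Over all genes these shares were 3.36% and 20.2%, and the median was −0.040. DOA4 (YDR069C), which recovers ubiquitin at endosomes, had a mean of −0.80 ± 0.25, and UBA1 (YKL210W), the ubiquitin-activating enzyme, one of −0.54 ± 0.17 (adjusted p = 0.151 and 0.143), each negative on all 4 arrays. DOA4 differed between experiments, with −0.26 and −0.35 on arrays 1 and 2 and −1.74 and −0.85 on arrays 3 and 4. UBI4 (YLL039C), the stress-induced polyubiquitin gene, read 0.88, 0.83 and 0.83 on arrays 1 to 3 and −0.38 on array 4. Its mean was 0.54 ± 0.20 (adjusted p = 0.210), and without array 4 it was 0.84 (adjusted p = 0.0443). That was the only 1 of 13 alternative fits in which UBI4 passed. Without array 3 its mean was 0.24.

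Regulators of RPN4 gave 5 tested genes of 8, of which 0 passed in limma (1 at an unadjusted p under 0.05), near the 3.36% and 20.2% of all genes. RAD6 (YGL058W), the ubiquitin-conjugating enzyme that acts with Ubr2 on the Rpn4 protein, read 1.10, 0.80, 0.49 and 1.04 on arrays 1 to 4, positive on each. The mean was 0.86 ± 0.17, or 1.81-fold, at an adjusted p of 0.0505 in limma, and 6 of 13 alternative fits placed it past the threshold, with adjusted p between 0.00892 and 0.395. PDR1 (YGL013C), an activator of drug resistance genes that also acts on RPN4, read −0.52, 0.48, −1.12 and −0.47, with a mean of −0.41 ± 0.22 (adjusted p = 0.363), which was −0.16 without array 1 and −0.66 without array 2. The ubiquitin ligase UBR1 (YGR184C), which is not the partner Ubr2 named above, was counted among the 5 tested. It had a mean of −0.28 ± 0.19 (adjusted p = 0.448). UBR2 itself had a value on array 4 alone, −0.18, and PDR3 and HSF1 had none, so none of these was tested.

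Pdr1 and its relative Pdr3, which both act on RPN4, also drive genes of drug export. Of 8 such targets 6 were tested, and 4 of them were called lower and 0 higher, where 1.74% of all genes were called lower. Their median was −0.98. The list was chosen with earlier results of these data known, so its count cannot be weighed against that share. Of the 6, 1 had a positive mean and was positive on all 4 arrays. PDR5 (YOR153W), a multidrug efflux pump, read −1.98, −1.87, −2.46 and −1.35 on arrays 1 to 4 (mean −1.92 ± 0.16, adjusted p = 0.00354). YOR1 (YGR281W), another efflux pump, fell 3.14-fold (mean −1.65 ± 0.20, adjusted p = 0.0142). TPO1 (YLL028W), a polyamine exporter, and SNQ2 (YDR011W), an efflux pump, fell by 1.03 ± 0.16 and 0.93 ± 0.17 on the log2 scale (adjusted p = 0.0315 and 0.0442). All 4 calls ended without array 3 (adjusted p from 0.272 to 0.548), when limma called 0 of 4255 genes and 385 stood at an unadjusted p under 0.05. SNQ2 also lost its call without array 1 or array 2, and TPO1 without array 2. Both lost theirs in the fit that asked only for 1 value from each experiment (adjusted p = 0.0773 and 0.0606). The difference between these genes and RPN4 was not itself tested.

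**Figure D4:**
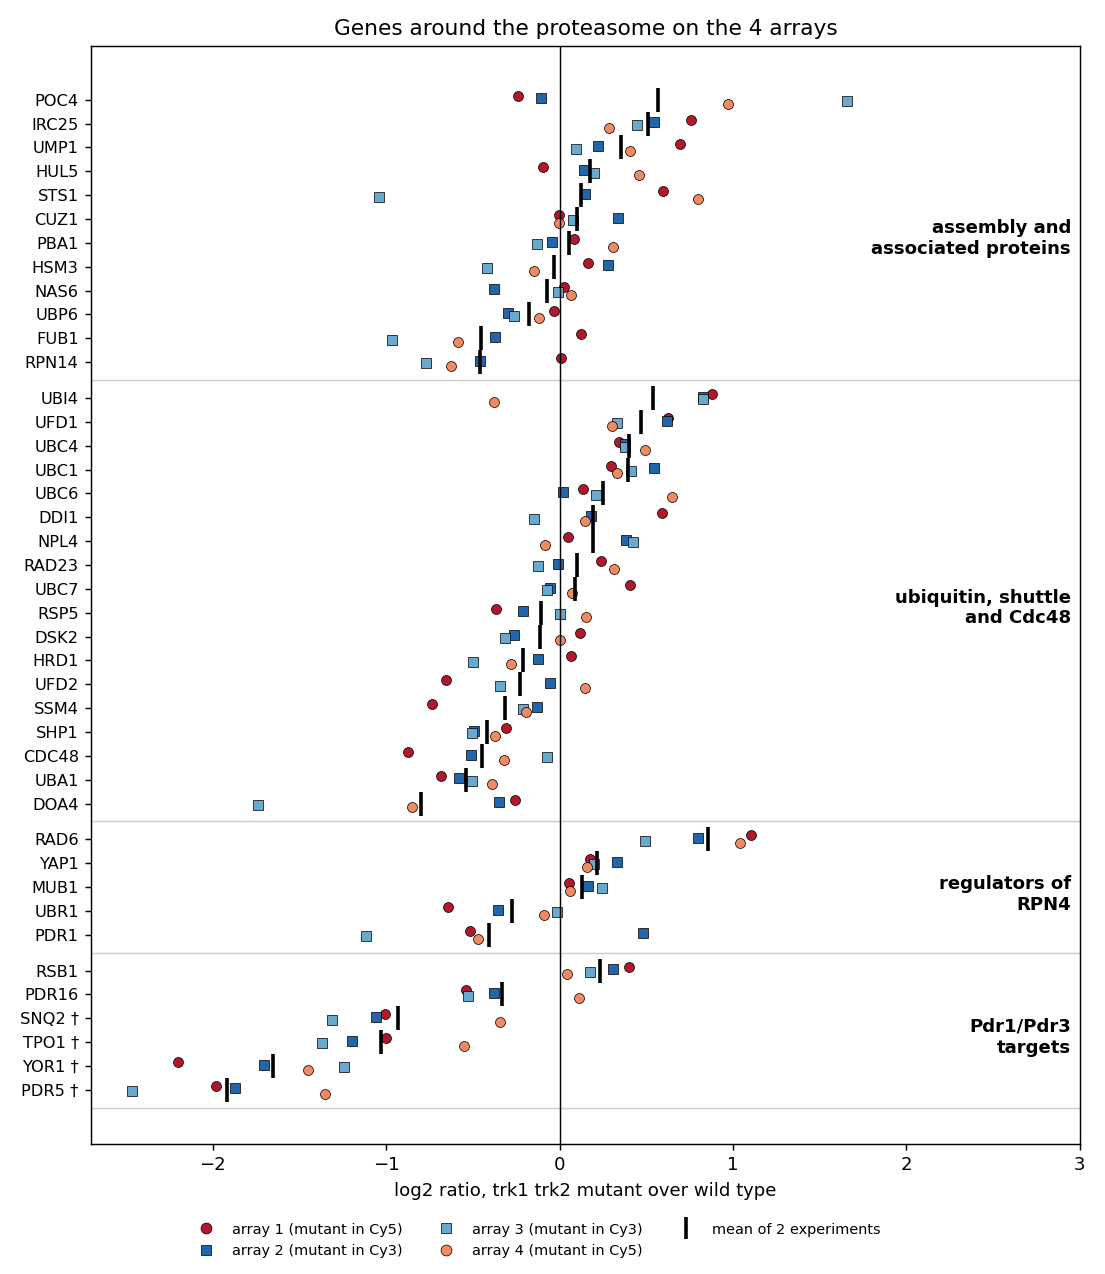
Log2 ratio of mutant over wild type (horizontal axis) for the genes of the 4 lists with a value on all 4 arrays (rows), with 1 point per array (circles for the mutant in Cy5, squares for Cy3; points are offset vertically for legibility) and black ticks for the mean of the 2 experiments. A dagger marks the 4 genes past an adjusted p of 0.05, PDR5, YOR1, TPO1 and SNQ2, whose points all lie left of 0.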

How the data were processed

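The deposited table holds one log2 ratio per gene and array, as processed by the authors. Per the labels, the authors set aside spots narrower than 120 µm or dimmer than 100 fluorescence units, and cDNA was made from 8 µg of total RNA with an oligo(dT) primer. The base of its logarithm, the scanner, the normalization and the centring were not given in the sources used here, and values were read as base 2. Scanner intensities and probe sequences were not used, so the number of arrays limits the precision, and cross-hybridisation between related subunits could not be assessed.

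Row names were matched to a RefSeq gene table for symbols and neighbouring genes. The arrays of an experiment were averaged, and the 2 experiment means were compared with 0 using limma 3.58.1 (lmFit, eBayes) in R 4.3.3, over genes with a value on all 4 arrays, with Benjamini-Hochberg adjustment. The labels do not say which arrays form an experiment; the pairing used rests on the wording of their descriptions. Separate cultures are implied by the word independent in the design text and stated nowhere else, so p-values may measure technical spread. The procedure was tested on simulated data. Their spread between experiments was the one that limma fitted here, with the same pairing of arrays and no dye effect. The spread between arrays of an experiment was set, not fitted, and cancelled in their mean. The simulation therefore does not bear on the pairing, on the dye or on the spread between arrays. Named genes are all members, TRK1 and TRK2, and from each list the genes past an adjusted p of 0.05 and the 3 with the largest mean change. UBR2, PDR3, HSF1 and SEM1 are also named, as listed genes that were not tested. Members and lists were chosen with earlier results of these data known.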

Additional observations from a re-analysis of the deposited data

Results flagged for a closer look

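In 3 of the 45 sets of 4 arrays examined (29 members, 3 subcomplex medians and 13 genes of the lists), 1 array stood so far from the other three that Dixon's test singled it out; chance does so in about 1 of 20 sets. PRE1 read −0.15 on array 4, against 0.18 to 0.25 on the others. PRE9 read 0.075 on array 3, against 0.13 to 0.14, a gap that is small in itself because its other values nearly coincide. UBI4 read −0.38 on array 4, against 0.83 to 0.88.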

How the results depend on the processing

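Against 0 members called higher in limma, 1 (PUP3) passed with the other pairing of arrays, with 4 separate arrays, with these and a dye term, with the experiment as a random block, and with genes on at least 2 arrays, and 1 changed at least 1.5-fold with the same sign on 4 arrays; 0 were called lower in any setting. Among all genes tested, 69 were called higher and 74 lower. The counts were 255 and 473 with the other pairing, 163 and 250 with 4 separate arrays, 185 and 292 with a random block, 130 and 179 with at least 2 arrays, 40 and 39 with at least 1 array of each experiment, and 165 and 284 for the 1.5-fold count. Higher calls numbered 106 with centred arrays, and lower calls 142 with a dye term. Leaving out 1 array gave 0 to 96 higher and 0 to 121 lower calls, 0 of them members.

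The core median stood between 0.10 and 0.21, and the base median between −0.035 and 0.041, when 1 array was left out. The base median was 0.11 with centred arrays, 0.080 and 0.064 with the 2 wider filters, 0.015 over all its members with any value, and 0.015 without RPN10 and RPN13. A change of sign was seen in 7 members, by leaving out an array: PRE3 (−0.18 to 0.21), PRE4 (−0.15 to 0.18), SCL1 (−0.21 to 0.15, and 0.023 with centred arrays), RPN10 (−0.12 to 0.35), RPT1 (−0.23 to 0.017), RPT2 (−0.015 to 0.26) and RPT6 (−0.053 to 0.083). The other 22 tested members kept their sign in all 13 alternatives. The causes were not tested. Each ratio already pairs the strains on its array, so no replicate number pairs separate groups.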
